A study of Homo sapiens with 117 samples.

Results

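Strong CTCF binding sites at the promoters of protein-coding genes are described here, from 24 lists of CTCF ChIP-seq peaks. A site was taken from the 20000 peaks of highest fold over background in each list. Summits within 100 bp of one another were joined over all lists, and a site was kept where 2 or more lists held it. Of the 26859 sites kept, 2301 (8.57%) had their centre within 1 kb of the transcription start site (TSS) of a protein-coding gene in GENCODE release 44 on GRCh38, and these are called promoter sites. They were selected on their fold values, so their strength and the number of lists that hold them are given as a description, with no test.

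All samples were DIvA cells, a derivative of the human osteosarcoma line U2OS in which the restriction enzyme AsiSI, fused to an estrogen receptor domain, enters the nucleus on addition of 4-hydroxytamoxifen (4-OHT) and cuts its recognition sites. Cells carried IDH1 WT or IDH1 R132H by lentiviral transduction, and some of the IDH1 R132H cells were also given TET1 CD, the active catalytic domain of TET1, or TET1 dCD, in which that domain is dead. Each was left untreated (-DSB) or given 300 nM 4-OHT for 4 h (+DSB). IDH1 WT had 3 lists -DSB and 4 +DSB, IDH1 R132H had 4 at each treatment, TET1 CD had 2 at each, and TET1 dCD had 3 -DSB and 2 +DSB. Where lists from the same condition could not be told apart by more than the error of counting reads, they entered as 1 sample. This left 15 samples, with IDH1 WT at 2 -DSB and 3 +DSB, IDH1 R132H at 3 -DSB and 2 +DSB, TET1 dCD -DSB at 2 and the remaining conditions at 1. The sources give 2 biological replicates for the CTCF ChIP-seq in 1 place and 2 to 4 replicates in another. They do not say which samples came from separate cultures, so p-values measure the spread between these samples only.

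CTCF is a zinc-finger protein that binds a long, GC-rich motif and holds the ends of chromatin loops together with cohesin, which it stops in a direction set by the motif. At promoters it can bring distant enhancers close to the TSS or keep them apart. Its binding is weakened at some sites by methylation of CpG dinucleotides within the motif. IDH1 R132H makes D-2-hydroxyglutarate, which inhibits 2-oxoglutarate-dependent enzymes, among them the TET proteins that start the removal of cytosine methylation.

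The names of the runs written inside the lists did not match the sample labels everywhere, and this touches every comparison below. The 3 lists labelled IDH1 WT -DSB carried run names of untreated mutant cells, and the 4 lists labelled IDH1 R132H -DSB carried run names of untreated wild-type cells. Replicates 1 and 2 labelled TET1 dCD -DSB carried run names of treated TET1 CD cells. Groups below follow the sample labels, and the main results are also given with groups from the run names. The lists also differed in fragment length, read from the shortest peak: 124 to 128 bp in IDH1 WT -DSB, 144 to 150 bp in IDH1 R132H -DSB, 143 to 191 bp in IDH1 WT +DSB and 121 to 127 bp in IDH1 R132H +DSB. At each treatment the 2 genotypes did not overlap in fragment length, and within each genotype the 2 treatments did not overlap. Fragment length can therefore not be told apart from genotype or from treatment in these lists. Replicate 3 of TET1 dCD -DSB stood apart from replicates 1 and 2, with a variance between lists 5.14 and 5.41 times that of counting noise. So did IDH1 WT +DSB replicate 2 from the other lists of its condition, with ratios of up to 5.32.

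The sequences under the sites show how much the promoter sites differ from one another. The CTCF core motif of 12 bases was searched on both strands within 50 bp of each site centre. The first 3 sequences below are from promoters whose sites ranked near the top of every list, the next 2 from among the promoter sites most raised in IDH1 R132H -DSB, and the last 3 from those most lowered in it. Each is read 5′ to 3′ on the stated strand of GRCh38. Capitals mark the best match to the core motif in the first 5 and CG dinucleotides in the last 3.
ACTB, chr7:5563736-5563765, plus strand, 1 mismatch: tccaggcgaCCGCCAGGTGGCgcaaccgac
INTS15, chr7:6589895-6589994, plus strand, 1 mismatch: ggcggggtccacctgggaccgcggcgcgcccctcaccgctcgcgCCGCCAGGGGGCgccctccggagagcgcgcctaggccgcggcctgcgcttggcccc
DHX8, chr17:43483761-43483860, plus strand, 1 mismatch: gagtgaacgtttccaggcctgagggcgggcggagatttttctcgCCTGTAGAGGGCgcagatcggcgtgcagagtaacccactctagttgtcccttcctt
JUP, chr17:41786446-41786475, minus strand, 2 mismatches: cctgcaccgGCGGCAGGGGGCgcgctgggg
TACR1, chr2:75199698-75199797, plus strand, 1 mismatch: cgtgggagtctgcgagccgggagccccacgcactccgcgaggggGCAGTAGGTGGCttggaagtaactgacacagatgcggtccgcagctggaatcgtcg
PCDHGB5, chr5:141397809-141397908, plus strand, 4 mismatches: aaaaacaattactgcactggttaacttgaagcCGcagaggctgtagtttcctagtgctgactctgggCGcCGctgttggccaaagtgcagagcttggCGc
BAIAP2L2, chr22:38110076-38110175, plus strand, 5 mismatches: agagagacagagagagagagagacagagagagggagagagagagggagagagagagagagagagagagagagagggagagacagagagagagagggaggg
ZMYM3, chrX:71255106-71255135, plus strand, 4 mismatches: ctctctctctctctctctctctctctctct
The sites at BAIAP2L2 and ZMYM3 lie in simple repeats of GA or CT with no close match to the core motif, and they are promoter sites by the rule alone.

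Promoter sites were GC-rich, and most lay upstream of the nearest TSS. Over the 100 bp on either side of the centre their median GC content was 67.7%, with a median of 18 CpG dinucleotides, against 46.8% and 3 CpG at the 24558 other sites. The centre was upstream of the nearest TSS at 1461 sites (63.5%), and 851 of the 2301 centres lay in the 200 bp just before it. The 200 bp just after the TSS held 285. In 571 (24.8%) the centre was in an exon of a protein-coding gene, and 184 (7.997%) had genes on both strands within 1 kb. The sites covered 2491 of 20033 protein-coding genes (12.4%), of which 63 had 2 promoter sites and none had 3. At the edge of the rule, 92 promoter sites had their centre in the last 100 bp inside the limit of 1 kb, and 94 sites that were left out lay in the first 100 bp beyond it.

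**Figure D1:**
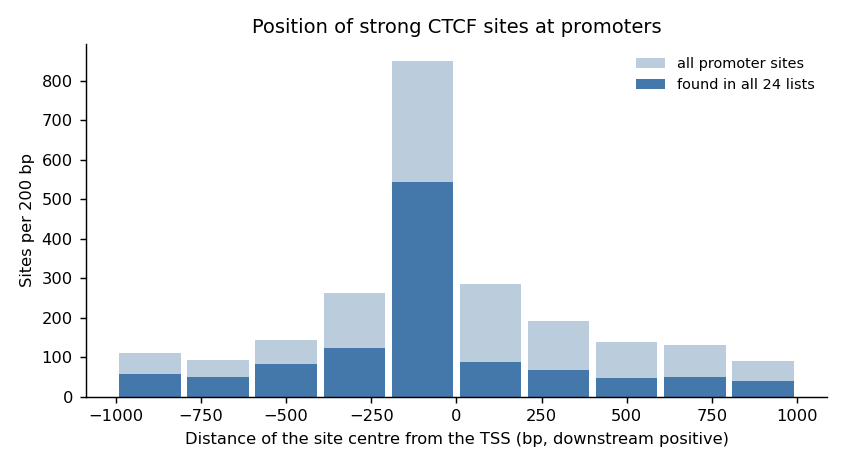
Number of strong CTCF sites at promoters in bins of 200 bp, by distance of the site centre from the nearest protein-coding TSS in bp, for all 2301 promoter sites and for the 1150 found in all 24 lists. The bin just upstream of the TSS holds 851 sites, 544 of them found in all lists, and no other bin holds more than 285.

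The core motif was found less often at promoter sites than at the other sites. An exact match was present at 181 promoter sites (7.87%), and 36.6% had a match with at most 1 mismatch, against 21.5% and 59.6% of the other sites. In the same window 500 bp away, at most 1 mismatch was found at 1.00% of promoter sites, and in windows on the TSS of all 20033 genes at 1.54%. With 2 mismatches allowed the search says little, since 12.8% of all TSS windows then matched. Where promoter sites had a match with at most 1 mismatch upstream of the TSS, the motif was on the strand of the gene at 397 of 597 (66.5%), and downstream at 118 of 246 (48.0%). These are descriptions, since the sites were chosen by binding.

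Promoter sites ranged from those found in every list to those found in a few. All 24 lists held 1150 of the 2301 (50.0%), close to the 48.8% of the other sites. At the other end, 428 were held by 2 to 6 lists, 153 of them by exactly 2. The rank of those 153 in their second-best list had a median of 18698, and of the 142 promoter sites left out because 1 list held them, 133 had a peak in a second list, at a median rank of 20687. The match to the motif changed along this scale: at most 1 mismatch was found at 17.99% of promoter sites in 2 to 6 lists, 25.5% in 7 to 12, 33.9% in 13 to 18, 34.5% in 19 to 23 and 47.2% in all 24. In 314 promoter sites (13.6%) at least 1 list had a peak over the centre with its summit elsewhere, and there the rank was taken as unknown.

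Among the promoter sites in all lists were some of the strongest sites of the whole genome. The 10 of best mean rank were at RAPGEF1, SDK1, INTS15, CLPB, COMTD1, KDM3B, DHX8, ACTB, ATP6V1D with EIF2S1, and RBM17. The site just upstream of RAPGEF1, a guanine nucleotide exchange factor for Rap GTPases, ranked between 20 and 96 over the 24 lists, with a median of 49.5. At INTS15, a subunit of the Integrator complex, the ranks ran from 9 to 222 with a median of 76.5. At ACTB, which encodes β-actin, they ran from 45 to 212 with a median of 100, the centre lying 163 bp downstream of the TSS in an exon. KDM3B, a histone H3K9 demethylase that itself uses 2-oxoglutarate, had ranks from 26 to 295 with a median of 80. DHX8, an RNA helicase of the spliceosome, ranged from 29 to 195 with a median of 101. None of the 10 was called in any comparison of conditions under quantile normalization or within GC bins. Under centring all 10 were called higher in IDH1 R132H +DSB, with adjusted p-values from limma of 0.00972 to 0.0217, and all 10 between treatments in IDH1 WT. For ACTB, the difference between IDH1 R132H and IDH1 WT in quantile-normalized log2 fold was 0.04 ± 0.08 (SE; limma, adjusted p = 0.722) -DSB and -0.04 ± 0.08 (adjusted p = 0.679) +DSB.

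Presence in the lists moved with condition, and it varied least at sites with an exact motif. Among the 20000 strongest peaks, IDH1 WT -DSB lists held 1431, 1575 and 1573 promoter sites, and IDH1 WT +DSB lists held 1864, 1797, 2096 and 2098. IDH1 R132H -DSB lists held 1763, 1676, 1699 and 1704, and IDH1 R132H +DSB lists held 1482, 1483, 1619 and 1606. At each treatment the 2 genotypes did not overlap, IDH1 R132H being above IDH1 WT -DSB and below it +DSB. Of the 181 sites with an exact motif, the 24 lists held between 152 and 165. Of the 684 with 3 or more mismatches they held between 314, in IDH1 WT -DSB replicate 2, and 600, in IDH1 WT +DSB replicate 4.

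**Figure D2:**
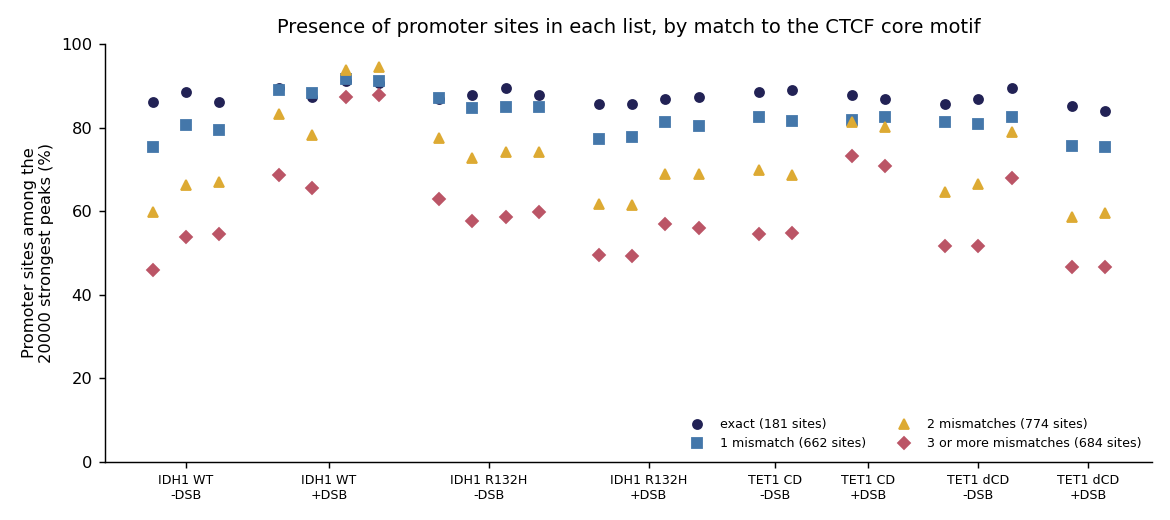
Promoter sites among the 20000 strongest peaks of each list, as a percentage of all promoter sites with the same match to the CTCF core motif. Each point is 1 list, grouped by condition; the TET1 CD and TET1 dCD lists are of IDH1 R132H cells. Sites with an exact motif stay level (152 to 165 of 181), and those with 3 or more mismatches spread widely (314 to 600 of 684).

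The rank of the median promoter site moved in the same order. It was 12980 to 14369 in IDH1 WT -DSB and 6109 to 10176 in IDH1 WT +DSB lists, and 10438 to 11725 in IDH1 R132H -DSB and 12522 to 14342 in IDH1 R132H +DSB lists. The other sites stayed between 13029 and 13528 in all 24 lists. Peak width moved with it, since a peak at a promoter site had a median width of 758 to 907 bp in IDH1 WT -DSB and 1225 to 1923 bp in IDH1 WT +DSB lists, against 753 to 837 bp and 995 to 1205 bp at the other sites. The part of width, fragment length and background in these ranks was not tested.

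The share of peaks at promoters was then measured on each list by itself, without joining, as the percentage of its 20000 strongest peaks with the summit within 1 kb of a TSS. The IDH1 WT samples averaged 7.50% ± 0.52 (SD, n = 2) -DSB and 9.69% ± 0.91 (n = 3) +DSB, and the IDH1 R132H samples 8.59% ± 0.22 (n = 3) -DSB and 7.75% ± 0.46 (n = 2) +DSB. Counting error was smaller, with a 95% Wilson interval of 6.78 to 7.49% for IDH1 WT -DSB replicate 2, which tied with TET1 dCD +DSB replicate 1 for the lowest share. IDH1 R132H differed from IDH1 WT by -0.43 percentage points over both treatments (exact permutation test within treatment, two-sided, p = 0.57). The change with DSB in IDH1 R132H, less that in IDH1 WT, was -3.03 percentage points (exact permutation test, two-sided, p = 0.01, the smallest that 100 relabellings can give). Without the sample of IDH1 R132H +DSB replicates 1 and 2 the p was 0.075. With groups from the run names the 2 results changed places: the genotypes differed by -1.52 percentage points (exact permutation test, p = 0.01) and the changes with DSB by -0.86 (p = 0.57).

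**Figure D3:**
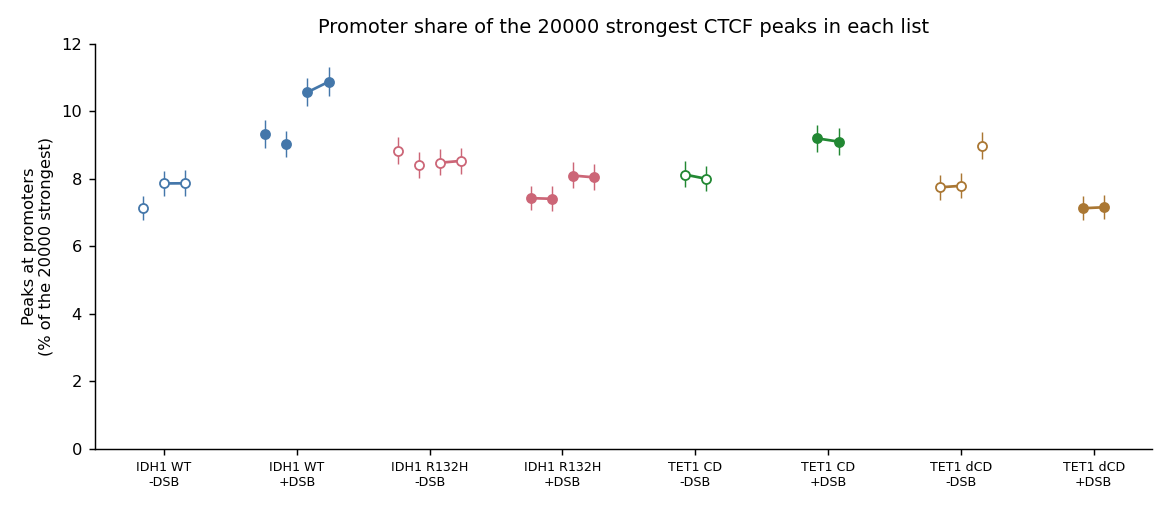
Percentage of the 20000 strongest CTCF peaks of each list with the summit within 1 kb of a protein-coding TSS. Points are lists with 95% Wilson intervals, open without and filled with DSBs, and a line joins lists counted as 1 sample; the IDH1 WT lists sit at 7.13 to 7.87% without and 9.03 to 10.9% with DSBs.

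TET1 CD and TET1 dCD gave shares of 8.07% and 8.37% ± 0.85 (n = 2) -DSB and of 9.15% and 7.15% +DSB. The difference over both treatments was 0.85 percentage points (exact permutation test, p = 0.667), in a design whose smallest possible p is 0.167. Replicate 3 of TET1 dCD -DSB had a share of 8.98%, and replicates 1 and 2 had 7.75% and 7.80%. With groups from the run names the difference over both treatments was 0.205 percentage points.

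Each site was then compared between conditions with limma on quantile-normalized log2 fold over all 26859 sites, and a site was called where the Benjamini-Hochberg adjusted p was under 0.05. Without DSBs, 456 of 2256 promoter sites tested (20.2%) were higher in IDH1 R132H than in IDH1 WT and 77 (3.41%) were lower, against 15.9% and 11.9% of all sites. With DSBs the balance turned: 84 of 2249 (3.73%) were higher in IDH1 R132H and 773 (34.4%) were lower, against 18.9% and 19.2% of all sites. The median difference at promoter sites was 0.12 -DSB and -0.33 +DSB on the log2 scale, and at the other sites -0.05 and 0.07. Without DSBs the calls rested on few samples. Without IDH1 WT replicate 2 the median difference was 0.05 at promoter sites and -0.06 at the other sites. Without IDH1 WT replicates 3 and 4 it was 0.18 and -0.04. Leaving out IDH1 R132H replicate 1 left 287 of 2256 promoter sites higher and 44 lower, against 2759 and 1547 of 26383 sites of all kinds. Leaving out IDH1 R132H replicate 2 left 337 and 42 of 2248, against 3004 and 1827 of 26368. With DSBs, the median difference without IDH1 R132H replicates 1 and 2 was -0.24 at promoter sites and 0.07 at the other sites. Without IDH1 R132H replicates 3 and 4 it was -0.40 and 0.07.

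The scaling of the lists moved these counts. When lists were scaled within 10 bins of GC content, 290 promoter sites were higher (12.9%) and 197 lower (8.73%) -DSB, against 14.7% and 10.5% of all sites, and 193 were higher (8.58%) and 411 lower (18.3%) +DSB, against 13.9% and 17.3%. The median difference at promoter sites was then -0.03 at both treatments, and the share of promoter sites higher -DSB or lower +DSB was near that of all sites. Centring each list on its median, which shifted the median of all sites by -0.10 -DSB and 0.18 +DSB, gave 677 higher (30.01%) and 371 lower (16.4%) -DSB, against 21.4% and 22.4% of all sites, and 661 higher (29.4%) and 879 lower (39.1%) +DSB, against 36.2% and 24.0%. With groups from the run names the direction -DSB turned, to 74 higher and 425 lower, against 11.5% and 15.4% of all sites, and +DSB it stayed, at 84 and 744, against 18.2% and 18.9%.

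**Figure D4:**
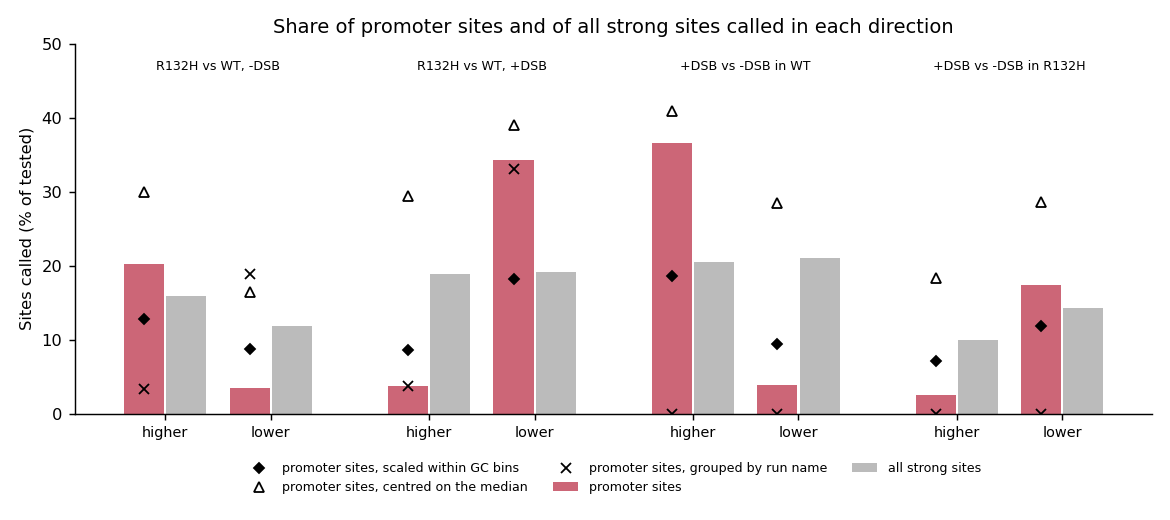
Percentage of tested sites called higher or lower at an adjusted p under 0.05 in 4 comparisons. Red bars are promoter sites and grey bars all strong sites under the same fit; symbols give promoter sites under scaling within GC bins, centring on the median and grouping by run name. Promoter sites called higher +DSB in IDH1 WT are 36.6% under quantile normalization, 41.0% under centring, 18.7% within GC bins and 0 under the run names.

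A site in few lists had to differ between lists, so the 1150 promoter sites held by all lists were also counted. Of these, 133 (11.6%) were higher in IDH1 R132H -DSB and 30 (2.61%) lower, against 8.93% and 7.79% of all sites held by every list. With DSBs 39 (3.39%) were higher and 247 (21.5%) lower, against 14.7% and 11.3%. Median centring moved sites of both kinds together. It gave 88 promoter sites higher (7.65%) and 323 lower (28.1%) -DSB, against 6.12% and 35.4% of all sites held by every list, and 610 of 1150 higher and 97 lower (8.43%) +DSB, against 58.1% and 5.57%. Within GC bins the counts were 98 (8.52%) and 84 (7.30%) -DSB, against 9.25% and 7.38%, and 92 and 154 (13.4%) +DSB, against 11.0% and 11.4%.

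Presence among the 20000 strongest peaks is the value that chose the sites, and it is given as a description. Every IDH1 R132H -DSB list and no IDH1 WT -DSB list held 109 promoter sites (4.74%), against 3.69% of all sites, and the reverse held for 18 (0.782%), against 2.55%. With DSBs, every IDH1 WT list and no IDH1 R132H list held 204 (8.87%), against 5.13% of all sites, and the reverse held for 29 (1.26%), against 4.03%. The 2 genotype comparisons share no list, and of the 454 promoter sites higher in IDH1 R132H -DSB that were tested in both, 429 (94.5%) were lower in it +DSB, which is 56.1% of the 765 that were lower. Of all sites, 3511 did so, 84.1% of those higher -DSB and 69.6% of those lower +DSB. No promoter site was higher in IDH1 R132H at both treatments, and 1 of all sites was. With groups from the run names, 401 promoter sites were lower in IDH1 R132H at both treatments, 94.6% of those lower -DSB and 54.4% of those lower +DSB. Of all sites 3442 were, 84.7% and 69.4%. With those groups 1 promoter site was higher -DSB and lower +DSB, and of all sites also 1.

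The motif and CpG content of the called sites varied. With DSBs, 19.9% of promoter sites with an exact motif were lower in IDH1 R132H, 30.4% of those with 1 mismatch, 37.5% with 2 and 38.5% with 3 or more. Within GC bins these shares were 12.5%, 16.4%, 20.8% and 18.7%. Under centring 51.7% of the sites with an exact motif were higher and 17.6% lower, and of those with 3 or more mismatches 17.5% were higher and 52.1% lower. Promoter sites with at most 13 CpG within 100 bp of the centre, 784 of the 2249 tested, held 72 of the 84 that were higher in IDH1 R132H +DSB. The 704 with more than 22 CpG held 4. Calls of lower +DSB were made at 31.0% of the sites with fewest CpG, 36.1% of those between and 36.2% of those with most.

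Each treatment comparison was read within its genotype. In IDH1 WT cells, 822 of 2243 promoter sites (36.6%) were higher +DSB than -DSB and 88 (3.92%) lower, against 20.5% and 21.0% of all sites. In IDH1 R132H cells, 58 of 2261 (2.57%) were higher and 394 (17.4%) lower, against 9.96% and 14.3%. Within GC bins the counts were 419 (18.7%) and 211 (9.41%) in IDH1 WT, against 18.0% and 14.9% of all sites, and 160 (7.08%) and 268 (11.9%) in IDH1 R132H, against 9.15% and 13.4%. Under centring they were 919 (41.0%) and 639 (28.5%) in IDH1 WT, against 24.4% and 36.7%, and 414 (18.3%) and 646 (28.6%) in IDH1 R132H, against 23.0% and 20.8%. With groups from the run names no site of any kind was called in either genotype, while 2881 sites in IDH1 WT and 437 in IDH1 R132H had an unadjusted limma p under 0.05. In IDH1 WT, the median change was 0.34 at promoter sites and -0.07 at the other sites. Without -DSB replicate 2 these were 0.25 and -0.08, and without -DSB replicates 3 and 4 they were 0.39 and -0.06. In IDH1 R132H, leaving out -DSB replicate 1 left 37 of 2260 higher and 236 lower, against 1281 and 2388 of 26410 sites of all kinds. Leaving out -DSB replicate 2 left 38 and 270 of 2252, against 1427 and 2538 of 26393. The median change was -0.11 at promoter sites and 0.05 at the other sites. Without +DSB replicates 1 and 2 these were -0.04 and 0.05, and without +DSB replicates 3 and 4 they were -0.19 and 0.05. The difference between the 2 changes was called at 149 of 2232 promoter sites as higher in IDH1 R132H (6.68%) and at 892 as lower (40.0%), against 27.6% and 25.1% of all sites, and at no site with groups from the run names, where 1109 sites had an unadjusted p under 0.05.

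The sites that moved most between the genotypes were at JUP, TACR1, RASAL1, FRMD3, TMDD1 and PNMA6A in one direction. These sites were held by 3 to 12 lists and entered only through the conditions where they were high, so their values are a description, with no test. JUP encodes junction plakoglobin, which links cadherins to the cytoskeleton. The JUP site, 468 bp downstream of the TSS, ranked 52475, 30263 and 30607 in IDH1 WT -DSB lists and 2792, 3958, 1581 and 1204 in IDH1 WT +DSB lists. In IDH1 R132H it ranked 4126, 6293, 9205 and 8616 -DSB and 36234, 33816, 26119 and 26000 +DSB. No list of one genotype overlapped the other at either treatment. In IDH1 R132H against IDH1 WT the log2 difference at JUP was 2.47 -DSB and -2.46 +DSB. In the TET1 lists the JUP ranks were 14932 and 10331 in TET1 CD -DSB, 28616 and 28128 in TET1 CD +DSB, 18692, 13175 and 26796 in TET1 dCD -DSB, and 60664 and 96538 in TET1 dCD +DSB.

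RASAL1, a GTPase-activating protein for Ras, had the same pattern. Its site ranked 34691, 37486 and 31549 in IDH1 WT -DSB and 2517, 4413, 2476 and 2619 in IDH1 WT +DSB lists. In IDH1 R132H it ranked 2809, 3609, 8371 and 7621 -DSB and 35965, 35734, 24553 and 23319 +DSB. TACR1 encodes the receptor of substance P. Its site ranked 8079 to 14499 in IDH1 WT +DSB lists, while 1 of the 3 IDH1 WT -DSB lists had no peak there and the others ranked it 196630 and 116935. The log2 difference between the genotypes at TACR1 was 2.59 -DSB and -2.61 +DSB. At PNMA6A and TMDD1 no IDH1 WT -DSB list and no IDH1 R132H +DSB list had a summit, so the fitted differences there rest mostly on the lowest fold of those lists. FRMD3, which encodes a FERM domain protein, had the largest fall +DSB, with a log2 difference of -3.14, and 2 of the 4 IDH1 R132H +DSB lists had no summit there. All these sites kept their direction under centring and within GC bins, and with groups from the run names the difference -DSB turned in sign.

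Among promoter sites held by 12 or more lists, the mean rank by condition spread most at TBC1D5 with SATB1, at DOCK8 and at JUP. The DOCK8 site ranked 36073, 46528 and 38115 in IDH1 WT -DSB and 10480, 9420, 3498 and 2321 in IDH1 WT +DSB. In IDH1 R132H it ranked 9393, 13281, 13620 and 14396 -DSB and 35143, 44422, 20514 and 38284 +DSB. In TET1 dCD +DSB it fell to 217521 and 81863. The groups of the 2 genotypes did not overlap at DOCK8 at either treatment, which is a description, since the site was picked for its wide spread by condition.

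In the other direction the largest differences were at BAIAP2L2, ZMYM3 with NONO, and PCDHGB5. At BAIAP2L2, whose site lies in the GA repeat printed above, the ranks were 19680, 23532 and 21701 in IDH1 WT -DSB and 15873, 14682, 17203 and 18832 in IDH1 R132H +DSB lists. The 4 IDH1 R132H -DSB lists ranked it between 64433 and 242433. TET1 dCD +DSB ranked it 19861 and 17184. The lists with the better ranks are those of the shortest fragments, 118 to 128 bp. The part of fragment length in this was not tested.

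Of the γ-protocadherins 7 were called at each treatment, against the direction of most called promoter sites. These genes of the clustered protocadherin family encode cell-surface proteins of which neurons express different sets, and each variable exon has a promoter of its own that CTCF can bind. Of 22 annotated PCDHG genes 11 (50.0%) had a promoter site, and of PCDHA and PCDHB genes 8 of 15 and 12 of 16, against 12.4% of all protein-coding genes. Of the 11 PCDHG sites, 7 were lower in IDH1 R132H -DSB and none higher, against 11.9% of all sites lower. With DSBs 7 were higher and none lower, against 18.9% of all sites higher. The medians were -1.01 and 1.13 on the log2 scale. Only 1 of the 11 sites was held by all lists. The others differed between lists in the value that chose them, so their calls are given as a description. All 11 differences were negative -DSB and all 11 positive +DSB, which held for 9 and 10 of them under centring and for 10 and 10 within GC bins. Within GC bins 7 were lower -DSB and 5 higher +DSB, under centring 6 and 7, and with groups from the run names 7 were higher in IDH1 R132H at both treatments.

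At PCDHGB2 the ranks were 12420, 14065 and 15750 in IDH1 WT -DSB and 28547, 30062, 30448 and 33334 in IDH1 WT +DSB. In IDH1 R132H they were 26213, 36984, 25508 and 25505 -DSB and 15419, 16520, 13160 and 15413 +DSB. At PCDHGA6 they were 13984, 11400 and 12890 in IDH1 WT -DSB, 31625, 29066, 36453 and 34941 in IDH1 WT +DSB, 39367, 43136, 21877 and 22972 in IDH1 R132H -DSB and 12033, 11995, 12592 and 13545 in IDH1 R132H +DSB. Neither site had groups that overlapped between genotypes at the same treatment. PCDHGA1, at the start of the cluster, was held by all lists and showed differences of 0.00 -DSB and 0.05 +DSB. The α and β members were more mixed: of 8 PCDHA sites tested, 1 was lower -DSB and 3 higher +DSB, and of 12 PCDHB sites, 3 were lower -DSB and 1 higher and 1 lower +DSB. These genes are near-identical copies of one another in part, and how reads that fit several copies were placed is not given in the sources used here.

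**Figure D5:**
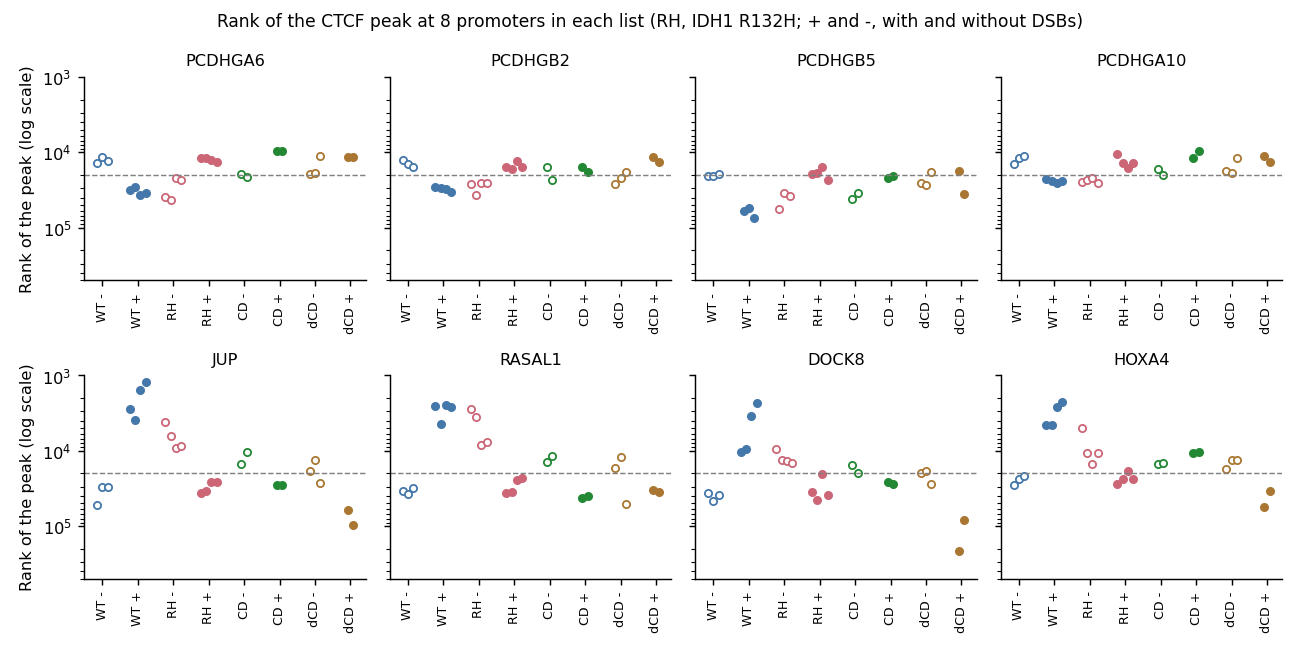
Rank of the CTCF peak at 8 promoters in each list, on a log axis with the strongest peaks at the top; 1 point is 1 list, open without and filled with DSBs, and the dashed line marks rank 20000. The 4 PCDHG promoters rank worse in IDH1 WT +DSB and IDH1 R132H -DSB lists, where JUP, RASAL1, DOCK8 and HOXA4 rank better; lists without a peak have no point.

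The HOX clusters encode transcription factors of body patterning. A promoter site was present at 4 of 11 HOXA, 1 of 10 HOXB, 2 of 9 HOXC and none of 9 HOXD genes, against 12.4% of all genes. HOXA4 was called between the genotypes at both treatments under all scalings. It was not held by all lists and entered through the lists where it was high, so its calls are given as a description. With groups from the run names its difference -DSB turned in sign. The other HOX sites were not called between the genotypes under quantile normalization, while HOXB5 -DSB and HOXC10 +DSB were called within GC bins. Under centring HOXB5 and 1 of the 2 HOXC sites were called -DSB, and several HOX sites +DSB. HOXA4 ranked 28236, 23601 and 21474 in IDH1 WT -DSB, 4562, 4484, 2645 and 2243 in IDH1 WT +DSB, 4972, 10756, 14866 and 10622 in IDH1 R132H -DSB and 27572, 23356, 18281 and 23535 in IDH1 R132H +DSB lists. The log2 difference was 1.36 -DSB and -1.69 +DSB, and the neighbouring HOXA5 site gave 0.02 and -0.06.

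Promoter sites were also found at genes for CTCF and its partners. Of 19 genes for CTCF, cohesin and loop factors 7 had a promoter site (36.8%, against 12.4% of all genes). Of the 7 sites 5 were held by all lists. PDS5A, a regulator of cohesin release, ranked 149 to 659 with a median of 360, and ESCO1, which acetylates cohesin, ranked 687 to 2602 with a median of 1315. STAG1, a cohesin subunit with an exact motif at the TSS, ranked between 158 and 6557. NIPBL, the cohesin loader, was higher in IDH1 R132H -DSB by 0.54 ± 0.16 (SE; limma, adjusted p = 0.0364) and lower +DSB by a log2 difference of -0.78 ± 0.16 (adjusted p = 0.00678). Within GC bins neither call at NIPBL held, with adjusted p-values of 0.488 and 0.215. Grouping by run name turned the -DSB difference at NIPBL in sign, to -0.54 (limma, adjusted p = 0.0386). STAG1 was also lower +DSB (log2 difference -0.42 ± 0.15, limma, adjusted p = 0.0494), a call lost within GC bins (adjusted p = 0.0887) and under centring, where the sign turned (0.18, adjusted p = 0.135). At the CTCF gene itself, 9 lists held a site 381 bp downstream of the TSS, and it was not called between the genotypes (limma, adjusted p = 0.0997 -DSB and 0.0763 +DSB). This site entered only through the lists where it was high, so its calls are given as a description. It was higher +DSB than -DSB in IDH1 WT by 1.15 on the log2 scale (adjusted p = 0.022), and under centring it was called between the genotypes, with 1.14 (adjusted p = 0.00988) -DSB and -1.13 (adjusted p = 0.00673) +DSB. Within GC bins none of these calls held, with limma adjusted p-values of 0.386 for treatment and 0.358 and 0.935 for genotype. With groups from the run names the treatment call was lost (limma, adjusted p = 0.669).

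Of 32 genes for homologous recombination and break signalling 5 had a promoter site (15.6%, against 12.4% of all genes): ATM, RBBP8, H2AX, EXO1 and PARP1. None of the 5 was called in the 4 comparisons by genotype or treatment under quantile normalization, while other scalings made calls. Within GC bins H2AX was lower in IDH1 R132H -DSB (log2 difference -0.39, limma, adjusted p = 0.0157) and higher +DSB (0.40, adjusted p = 0.0108). Under centring 2 of the 5 were lower -DSB, and 2 were higher and 1 lower +DSB. H2AX was the site lower +DSB (-0.61, limma, adjusted p = 0.0172), against its direction within GC bins. PARP1, which makes poly(ADP-ribose) at breaks, ranked 385 to 6691 with a median of 3830, and RBBP8, which encodes the resection factor CtIP, ranked 1941 to 10538 with a median of 4798. The site between ATM and NPAT ranked 4520 to 21832, and the H2AX site 12006 to 25910. Of 9 end-joining genes NHEJ1 and POLQ had a site (22.2%). POLQ, the polymerase of theta-mediated end joining, was lower in IDH1 R132H -DSB (log2 difference -0.70 ± 0.20, limma, adjusted p = 0.0312) and gave 0.42 ± 0.20 +DSB (adjusted p = 0.123). Within GC bins the POLQ call was lost, at an adjusted p of 0.0839. Grouping by run name turned its -DSB difference in sign, to 0.70 (limma, adjusted p = 0.0265).

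Among genes for cytosine methylation and 2-oxoglutarate enzymes, DNMT3A and ALKBH2 had a site held by all lists. DNMT3A, a de novo DNA methyltransferase, ranked 12576, 10442 and 10529 in IDH1 WT -DSB, 3192, 1866, 1278 and 1364 in IDH1 WT +DSB, 2636, 3353, 4013 and 5840 in IDH1 R132H -DSB and 14036, 12928, 8212 and 9200 in IDH1 R132H +DSB. The groups did not overlap between genotypes at either treatment, and the log2 differences were 0.61 ± 0.15 (SE; limma, adjusted p = 0.0181) -DSB and -0.73 ± 0.15 (adjusted p = 0.00669) +DSB. None of the TET genes had a promoter site. Among cell cycle genes MDM2 and CDK4 had one, and CDK4, a G1 cyclin-dependent kinase, was called with differences of 0.44 ± 0.11 (adjusted p = 0.0189) -DSB and -0.49 ± 0.11 (adjusted p = 0.00888) +DSB. Within GC bins the CDK4 calls were lost, at adjusted p-values of 0.0799 and 0.118, and under centring those values were 0.0585 and 0.0790. The +DSB call at DNMT3A was also lost under centring, at 0.0761. Grouping by run name turned the -DSB differences at DNMT3A and CDK4 in sign. They were then -0.61 at DNMT3A (limma, adjusted p = 0.0278) and -0.44 at CDK4 (adjusted p = 0.0285).

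Of the larger gene families, set against 12.4% of all genes, promoter sites were present at 57 of 515 ZNF genes (11.1%), 15 of 52 RPL (28.8%) and 8 of 45 RPS ribosomal protein genes (17.8%), and 8 of 49 MRPL (16.3%) and 5 of 29 MRPS mitochondrial ribosomal protein genes (17.2%). Of the ZNF sites tested, 9 of 54 were higher and none lower in IDH1 R132H -DSB, and 1 of 55 was higher and 17 lower +DSB, where GC bins gave 8 and 6, and 7 and 9. Over all promoter sites, 20.2% were higher -DSB and 34.4% lower +DSB, and over all sites 15.9% and 19.2%.

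AsiSI cuts at GCGATCGC, of which GRCh38 holds 1220 copies on chromosomes 1 to 22 and X. Within 1 kb of a copy lay 38 promoter sites (1.65%) and 43 other sites (0.175%). Of 37 such promoter sites tested in IDH1 WT, 14 were higher +DSB than -DSB and none lower, and of 36 tested in IDH1 R132H, none was higher and 8 lower. Over all promoter sites, 36.6% were higher in IDH1 WT and 17.4% lower in IDH1 R132H, and over all sites 20.5% and 14.3%. These calls are those under quantile normalization. Grouping by run name left no site of any kind called in either genotype. The 5 of best mean rank were at CYB561D1, AHCYL1, MED15 with KLHL22, FAM171A2 and RPN1. At CYB561D1, whose site centre is 85 bp from an AsiSI site, ranks were 243, 199 and 154 in IDH1 WT -DSB and 570, 419, 588 and 859 in IDH1 WT +DSB. In IDH1 R132H they were 762, 804, 243 and 298 -DSB and 204, 473, 243 and 177 +DSB. Which copies of the AsiSI site were cut was not analysed here.

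TET1 CD and TET1 dCD were compared over both treatments. No promoter site of 2189 tested was called, against 0% of all sites higher and 0.00386% lower, while 241 promoter sites had an unadjusted limma p under 0.05. The median difference at promoter sites was 0.14 on the log2 scale, with 80.9% positive, and 0.01 with 52.0% positive at the other sites. The comparison depended on the TET1 dCD -DSB lists. Without replicate 3 the median was 0.22 at promoter sites and 0.02 at the other sites. Without replicates 1 and 2 it was 0.06 and -0.002. Those 2 replicates carried run names of treated TET1 CD cells. With groups from the run names the median was -0.01 at promoter sites, 1021 of 2186 being positive, and -0.01 at the other sites. An alternative chosen after seeing the data kept the pairs that had no further list to compare with as 2 samples each. It gave 163 promoter sites of 2189 higher in TET1 CD and 8 lower, against 1261 and 1176 of 25897 sites of all kinds.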

How the data were processed

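CTCF was measured by ChIP-seq in 24 samples with deposited peak lists. The sources give alignment to hg38 with Bowtie2 (2.3.4.1 in the submitters' processing notes, which also name cutadapt 1.18), a quality filter, and MACS2 peak calling on each sample with input as control. The version of MACS2 is not given in the sources used here without conflict. The fold values deposited by the authors are a ratio of summit reads to background, not normalized between lists. The deposited lists also hold −log10 p and −log10 q values from the authors' peak caller, which entered no comparison, and summit offsets. Total read counts per library are unknown. The background, recovered from the steps of the fold values, was 1.04 to 5.73 reads. It was 1.04 to 1.65 in IDH1 WT -DSB and 4.05 to 5.73 in IDH1 WT +DSB lists. In IDH1 R132H it was 2.36 to 3.37 -DSB and 1.06 to 1.62 +DSB. These ranges did not overlap between genotypes at the same treatment or between treatments of the same genotype. Background can therefore not be told apart from genotype or treatment.

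Summits were joined over lists, and log2 fold per site was quantile-normalized, averaged over lists counted as 1 sample, and fitted with limma 3.58.1 (R 4.3.3) over all 26859 sites and 8 conditions, with Benjamini-Hochberg adjustment. A list without a peak at a site was given its lowest fold, and a list whose peak covered the centre with its summit elsewhere was left out at that site, so the number of sites tested varies. Lists were counted as 1 sample where a chi-square test over shared summits of mean 20 to 200 reads gave p of 0.05 or more. This rule was set after the ratios were seen. The fit, tested on simulated data for IDH1 R132H against IDH1 WT +DSB over 26859 sites, recovered 10.4%, 70.1% and 84.8% of sites changed by 0.5, 1 and 2 on the log2 scale, with 3 false calls. Shares were tested by exact permutation within treatment. Alternatives were centring on the median, quantile normalization within 10 bins of GC, groups from the run names, other site filters, every list as its own sample with and without a replicate block, and leaving out each sample.

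The promoter sites, gene lists and tests were chosen with earlier results of these data known. Named sites are the 10 of best mean rank, the 3 of largest difference in each direction and comparison, those at genes of the lists above, the 5 of best rank within 1 kb of an AsiSI site, and the 3 of widest range by condition. Intervals cover counting error only. IDH1 WT -DSB replicate 1 and the 4C samples were not analysed here. Results for some genes of the lists and 1 sequence are not reported here.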

Additional observations from a re-analysis of the deposited data

Results flagged for a closer look

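Both values below differed between the genotypes in their change with DSB. The change in the promoter share of the 20000 strongest peaks in IDH1 R132H, less that in IDH1 WT, was -3.03 percentage points (exact permutation test, two-sided, p = 0.01). In the limma fit, 1041 of 2232 promoter sites (46.6%) were called for the same difference, against 52.7% of all sites, so the share called was no higher at promoters. With groups from the run names inside the lists the share differed by -0.86 percentage points (p = 0.57 by the same exact test), and no promoter site was called. Every condition had fewer than 4 samples, so no search for a single sample far from the others was made.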

How the results depend on the processing

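The change in promoter share kept its direction under all alternatives and its call under all but 2, groups from the run names (-0.86 percentage points) and leaving out IDH1 R132H +DSB replicates 1 and 2; values with 1 sample left out ran from -3.40 to -2.52. The genotype difference in share ran from -0.61 to -0.17 with 1 sample left out and was called only with groups from the run names (-1.52). TET1 CD against dCD ran from 0.55 to 1.15.

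Counts of sites called of all kinds moved by over 1.5 times as follows, in the order -DSB genotype, +DSB genotype, and treatment in IDH1 R132H. Centring gave 11585, 15851 and 11578, every list as its own sample 11191, 15990 and 11681, and the same with the replicate block 11394, 16320 and 12171. The 20000 sites of highest mean gave 6637 for +DSB genotype and 7126 for treatment in IDH1 WT. Groups from the run names gave 0 for both treatment comparisons and 0 for the difference in change (limma; unadjusted p under 0.05 at 2881, 437 and 1109 sites). TET1 CD against dCD, with 1 site called, gave 24 by centring, 20 within GC bins, 4039 with every list its own sample, 5054 with the replicate block, 4 with run names, 2437 with lone pairs kept as 2 samples, and 0 for sites with a peak in every list, the 20000 of highest mean and the robust fit (unadjusted p under 0.05 at 2684, 1502 and 3230). With 1 sample left out, counts ran from 2464 to 7188 and 3647 to 10015 for genotype, 4501 to 10604 and 1868 to 6461 for treatment in IDH1 WT and IDH1 R132H, 10325 to 13830 for the difference in change and 8 to 1750 for TET1.

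Replicate numbers did not pair the samples: deviations of same-numbered lists correlated with a median of 0.02 (-0.22 to 0.48, 65 pairs), so the block says little; with it the promoter share gave -0.67, -3.06 and 1.15 percentage points for genotype, change and TET1. Where an alternative moved a count and no cause is named, the cause was not tested. With 1 to 3 samples per condition, small differences were not detectable: at 0.5 on the log2 scale 10.4% were recovered in simulation.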
